A study of Mus musculus with 14 samples.

Results

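Glycolysis and hypoxia response genes were followed across 5 groups of p65-deficient fibroblasts. The group is a list of 34 named genes, made of glucose transport, the glycolytic enzymes and their regulators, the oxygen-sensing machinery and genes known to be induced by low oxygen. A gene was measured by its brightest probe of that name, taken as the highest mean over all arrays. Of the 34 genes, 33 had a probe (of 27962 gene names on the array) and all 33 were tested, among 22172 tested probes of 41174. Gapdh had no probe of that name and was not measured. Testing required that all arrays of some group read the probe well above background.

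The cells were p65(-/-) mouse embryonic fibroblasts (MEFs), which lack the RelA subunit of NF-κB, and every group carries that deletion. Pools of cells, 1 per construct and selected with blasticidin after lentiviral transduction, expressed wild type p65 (wt), the triple mutant KTR (lysines K310, K314 and K315 changed), the double mutant K314/315R, or carried the empty vector pTV. The lysines concerned, which can be acetylated, are arginines in the mutants. All cells were starved overnight. They were then given 30 ng/ml mouse TNFα for 3 h, or left untreated (wt only, 0 h). Total RNA labelled with Cy3 was hybridised to 14 1-colour Agilent whole mouse genome arrays, with 3 biological replicates per group and 2 for K314/315R, the replicates having been isolated on separate days. There was no unstimulated pTV or mutant group, so the response to TNFα was measured in wt cells only. Whether the untreated wt cells were collected at the same hour as the treated ones was not stated. Elapsed time and TNFα therefore cannot be told apart. Because each line is 1 pool, the effect of a construct and other differences between the pools cannot be told apart.

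Glycolysis turns glucose into pyruvate, and cells with little oxygen send the pyruvate to lactate and export it. The switch is driven by hypoxia-inducible factor, whose oxygen-labile subunit is encoded by Hif1a: prolyl hydroxylases of the Egln family mark it for destruction while oxygen is present, and when it accumulates it binds short sites near glycolytic enzymes, pyruvate dehydrogenase kinase, the lactate exporter, angiogenic factors and mitophagy genes. Hif1a transcription is itself a known target of NF-κB, which TNFα activates.

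The stretch of 250 bases before the RefSeq transcription start (mouse build GRCm38.p6, most upstream start of each gene) was read for 33 of the 34 genes and searched on both strands for the hypoxia core, ACGTG or GCGTG, and for the κB consensus. Capitals mark the matches. A CACGTG palindrome holds the core on each strand and counts as 2 matches. The stretches shown are those of genes on which the results below turn, written 5′ to 3′ in the direction of the gene: Hif1a (chr12:73907617-73907866, plus strand), Egln3 (chr12:54203875-54204124, minus), Adm (chr7:110627407-110627656, plus), Bnip3 (chr7:138909507-138909756, minus), Slc16a3 (chr11:120948817-120949066, plus), Pfkfb3 (chr2:11553930-11554179, minus) and Vegfa (chr17:46032378-46032627, minus).
Hif1a: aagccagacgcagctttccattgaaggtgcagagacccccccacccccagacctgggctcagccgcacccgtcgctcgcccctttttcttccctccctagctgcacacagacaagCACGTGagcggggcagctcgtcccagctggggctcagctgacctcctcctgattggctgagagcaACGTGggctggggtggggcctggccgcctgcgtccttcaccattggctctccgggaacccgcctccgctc
Egln3: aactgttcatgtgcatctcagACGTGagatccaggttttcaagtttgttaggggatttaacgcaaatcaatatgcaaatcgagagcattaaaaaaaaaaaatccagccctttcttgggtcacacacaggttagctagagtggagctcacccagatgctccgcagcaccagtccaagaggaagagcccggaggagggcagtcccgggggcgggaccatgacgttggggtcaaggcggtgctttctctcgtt
Adm: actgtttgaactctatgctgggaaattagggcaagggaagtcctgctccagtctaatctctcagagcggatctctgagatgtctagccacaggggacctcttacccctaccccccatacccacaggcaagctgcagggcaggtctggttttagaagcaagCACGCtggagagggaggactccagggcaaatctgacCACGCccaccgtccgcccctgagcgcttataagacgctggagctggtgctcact
Bnip3: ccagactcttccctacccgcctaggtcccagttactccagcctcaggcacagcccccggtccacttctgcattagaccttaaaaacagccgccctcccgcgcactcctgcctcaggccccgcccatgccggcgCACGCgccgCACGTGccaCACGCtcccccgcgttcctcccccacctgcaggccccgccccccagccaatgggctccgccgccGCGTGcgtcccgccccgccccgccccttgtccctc
Slc16a3: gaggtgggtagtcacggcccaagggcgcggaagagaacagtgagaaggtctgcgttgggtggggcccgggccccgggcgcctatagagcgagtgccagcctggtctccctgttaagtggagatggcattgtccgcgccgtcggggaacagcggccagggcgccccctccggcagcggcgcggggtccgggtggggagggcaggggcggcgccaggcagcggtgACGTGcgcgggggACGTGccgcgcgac
Pfkfb3: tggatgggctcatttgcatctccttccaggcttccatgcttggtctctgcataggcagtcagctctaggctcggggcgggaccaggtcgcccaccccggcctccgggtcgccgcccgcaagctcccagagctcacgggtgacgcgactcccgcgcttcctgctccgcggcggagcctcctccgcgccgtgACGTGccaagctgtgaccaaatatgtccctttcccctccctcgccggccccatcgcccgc
Vegfa: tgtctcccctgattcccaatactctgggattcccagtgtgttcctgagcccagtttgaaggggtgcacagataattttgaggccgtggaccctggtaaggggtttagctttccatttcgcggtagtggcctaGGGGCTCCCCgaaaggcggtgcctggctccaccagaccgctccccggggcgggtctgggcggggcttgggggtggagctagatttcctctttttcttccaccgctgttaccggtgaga
Hif1a had 3 matches to the core, Bnip3 had 5, Slc16a3 and Adm had 2 each, and Egln3 and Pfkfb3 had 1 each. In the Vegfa stretch the core letters were not found, and the capitals there are a match to the κB consensus, as was found in 2 of the 33 members in all (6.1%, against 3.7% of the stretches of all genes). Of the 33 members with a sequence, 26 (78.8%) held at least 1 core, against 10442 of 27025 genes (38.6%); the list was drawn up from known hypoxia targets, and a match is a run of letters, not a bound site.

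Values are given as the log2 intensity minus the 75th percentile of the array, so 0 is the level of a probe at that percentile, and differences are log2 differences between group means with the standard error (SE) from limma. A member was called where the adjusted p (limma, Benjamini-Hochberg over all tested probes) was under 0.05, and a ratio past 1.8 in either direction was counted as well. Every tested member is given by its difference and call in the map of differences by comparison.

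**Figure D1:**
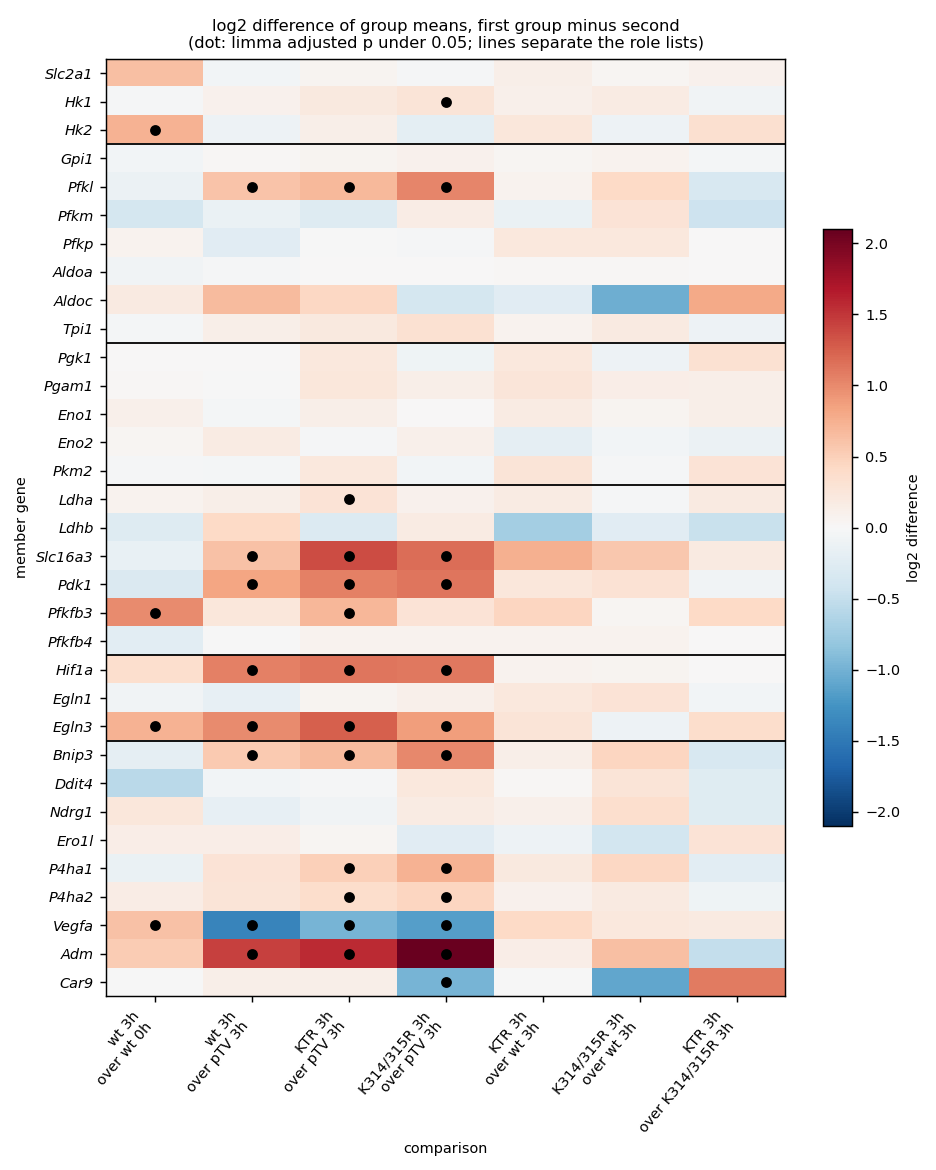
Log2 difference of group means (colour, first group minus second) of the 33 members, in rows by role, for the 7 comparisons in columns; a dot marks a limma adjusted p under 0.05. The dots lie in the wt 3 h over wt 0 h column (4) and the 3 columns against pTV (8, 12 and 12), with none in the 3 columns between lines that carry a p65.

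Most calls lay between lines with and without a p65. In wt against pTV at 3 h, 8 of 33 members (24.2%) were called, 7 higher in wt and 1 lower, against 14.8% of all tested probes (8.03% higher and 6.8% lower); the median difference of the members was 0.12 (-0.10 with normexp background correction), and that of all probes was -0.03. In wt 3 h against 0 h, 4 of 33 members (12.1%) were called, all higher at 3 h than at 0 h. Of all probes 4.68% were called (2.71% higher and 1.97% lower). The medians were 0.02 over the members (-0.19 with normexp) and -0.04 over all probes. An unadjusted p under 0.05 (limma) was found for 8 members and for 17% of all probes. KTR and pTV differed in 12 members (36.4%, 11 higher and 1 lower; 15.2% of all probes, 9.27% higher and 5.89% lower), and K314/315R and pTV in 12 (36.4%, 10 higher and 2 lower; 26% of all probes, 12.5% higher and 13.5% lower). The medians against pTV were 0.20 over the members and 0.02 over all probes for KTR, and 0.13 and -0.01 for K314/315R. The member median was 0.29 with normexp and 0.09 with the authors' normalized values for KTR, and 0.16 and 0.17 for K314/315R. The 3 comparisons with pTV share its arrays. Past the ratio of 1.8 as well were 4 members in wt against pTV (6.27% of all probes), 1 in wt 3 h against 0 h (1.55%), 6 in KTR against pTV (6.01%) and 9 in K314/315R against pTV (11.5%). Between lines that carry a p65, limma called 0 of 33 members: KTR against wt (0.235% of all probes), K314/315R against wt (2.21%) and KTR against K314/315R (5.41%), with 7, 6 and 8 members at an unadjusted p under 0.05, which held for 9.19%, 17.4% and 21.4% of all probes. The member median against wt was 0.13 for KTR and 0.08 for K314/315R, with 0.06 and 0.02 over all probes. These member medians were 0.39 and 0.28 with normexp, and 0.08 and 0.11 with the authors' normalized values. Array values did not overlap for 14 of 33 members between wt and pTV (34.5% of all probes without a missing value). Between wt 3 h and 0 h that held for 16 (30.4%), and between KTR and wt for 9 (14.2%). Between KTR and pTV it held for 15 (28.6%), between K314/315R and pTV for 17 (49.6%). Between KTR and K314/315R it held for 10 (30.8%).

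How many calls were made depended on the spot signal used. The scanner software's signal was detrended as well as background-subtracted, and the raw means given to normexp were not. The parts of background step and detrending therefore cannot be told apart. With normexp on the raw spot means in place of the scanner software's corrected signal, 9 of the 36 calls were kept (Vegfa and Adm in wt against pTV; Pdk1, Hif1a and Adm in KTR against pTV; Pfkl, Pdk1, Vegfa and Adm in K314/315R against pTV), all 36 with their direction. The authors' own normalized table kept 35 of the 36.

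The arrays were alike in depth of signal: 49.9 to 57.7% of spots were well above background, the 75th percentile lay between 967 and 1442 intensity units, and replicates of a group correlated at 0.984 to 0.995 (Pearson's r over tested probes). Slides 1 to 3 each held 1 array of wt 3 h, KTR, pTV and wt 0 h, and slide 4 held both K314/315R arrays, so for that line slide and mutant cannot be told apart. Rela, the gene for p65, gave 1.52 to 1.54 on the wt 3 h arrays, 1.00 to 1.34 in pTV, 0.97 to 1.04 in wt 0 h, 0.79 to 1.54 in KTR and 1.54 to 1.87 in K314/315R with its brighter probe; where that probe lies relative to the disrupted part of the gene was not determined, so it is no check of the labels. Of 9 fibroblast markers 8 were well above background on all arrays and of 5 endothelial markers 0 were on any. Of 5 leukocyte markers 0 were on all arrays and 3 were on none. Some markers differed between wt and pTV at 3 h. The summed level of the 5 epithelial markers (2 on all arrays, 2 on none) was 1.06 to 1.29 in pTV and 0.683 to 0.734 in wt 3 h, on a linear scale where 1 is the 75th percentile, with 0.877 to 0.983 in wt 0 h, 0.791 to 0.978 in KTR and 0.720 to 0.747 in K314/315R. Of the epithelial markers, Krt18 (-2.53 ± 0.40 SE), Krt19 (-0.66 ± 0.13) and Krt8 (-0.41 ± 0.12) were called lower in wt than in pTV. Among fibroblast markers, Pdgfra (1.77 ± 0.14 SE) and Pdgfrb (1.99 ± 0.16) were higher in wt than in pTV and Thy1 was lower (-1.19 ± 0.14). The other fibroblast markers were not called, with differences from -0.51 (Fn1) to 0.26 (Col3a1). The part of these in the differences against pTV was not tested.

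Of the 3 oxygen-sensing genes, 2 were higher in wt than in pTV and 1 was higher after TNFα. Hif1a was 2.07-fold higher in wt than in pTV at 3 h (1.05 ± 0.13 SE, n = 3 each, adjusted p = 0.000161, limma). The wt 3 h arrays read 3.27, 3.07 and 3.26, and the pTV arrays 2.12, 2.00 and 2.33. No value of the groups overlapped, and the difference was 1.15, 1.07 and 0.93 within slides 1, 2 and 3. The unstimulated wt arrays, at 2.97, 2.72 and 2.86, also lay above all pTV arrays. Hif1a at 3 h was above 0 h by 0.35 ± 0.13, which was not called (adjusted p = 0.194). KTR (3.22, 3.11 and 3.49) and K314/315R (3.11 and 3.42) overlapped the wt values, with 1 array of each above them, and were higher than pTV by 1.12 ± 0.13 and 1.11 ± 0.15 (adjusted p = 0.000109 and 0.000249, limma). Whether fewer cells expressing a gene or less RNA per cell lies behind a lower level cannot be told apart in such bulk RNA.

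Egln3 is a prolyl hydroxylase that is itself induced by hypoxia-inducible factor. It was called in wt 3 h both against pTV and against wt 0 h, higher in wt 3 h each time. Its wt 3 h arrays read -0.93, -1.01 and -1.11, the wt 0 h arrays -1.73, -1.65 and -1.85, and the pTV 3 h arrays -1.96, -1.98 and -2.07. The 3 groups did not overlap, with stimulated wt highest and pTV lowest. The differences were 0.99 ± 0.10 against pTV (1.98-fold, adjusted p = 1.54e-05, limma) and 0.73 ± 0.10 against 0 h (1.66-fold, adjusted p = 0.00103, limma). KTR was above pTV by 1.26 ± 0.10 and K314/315R by 0.88 ± 0.11 (adjusted p = 3.26e-06 and 0.000115, limma). Egln1, the main oxygen sensor of the family under normal oxygen, lay between 0.27 and 0.97 on all 14 arrays and was not called in any of the 7 comparisons, its differences running from -0.17 to 0.28.

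**Figure D2:**
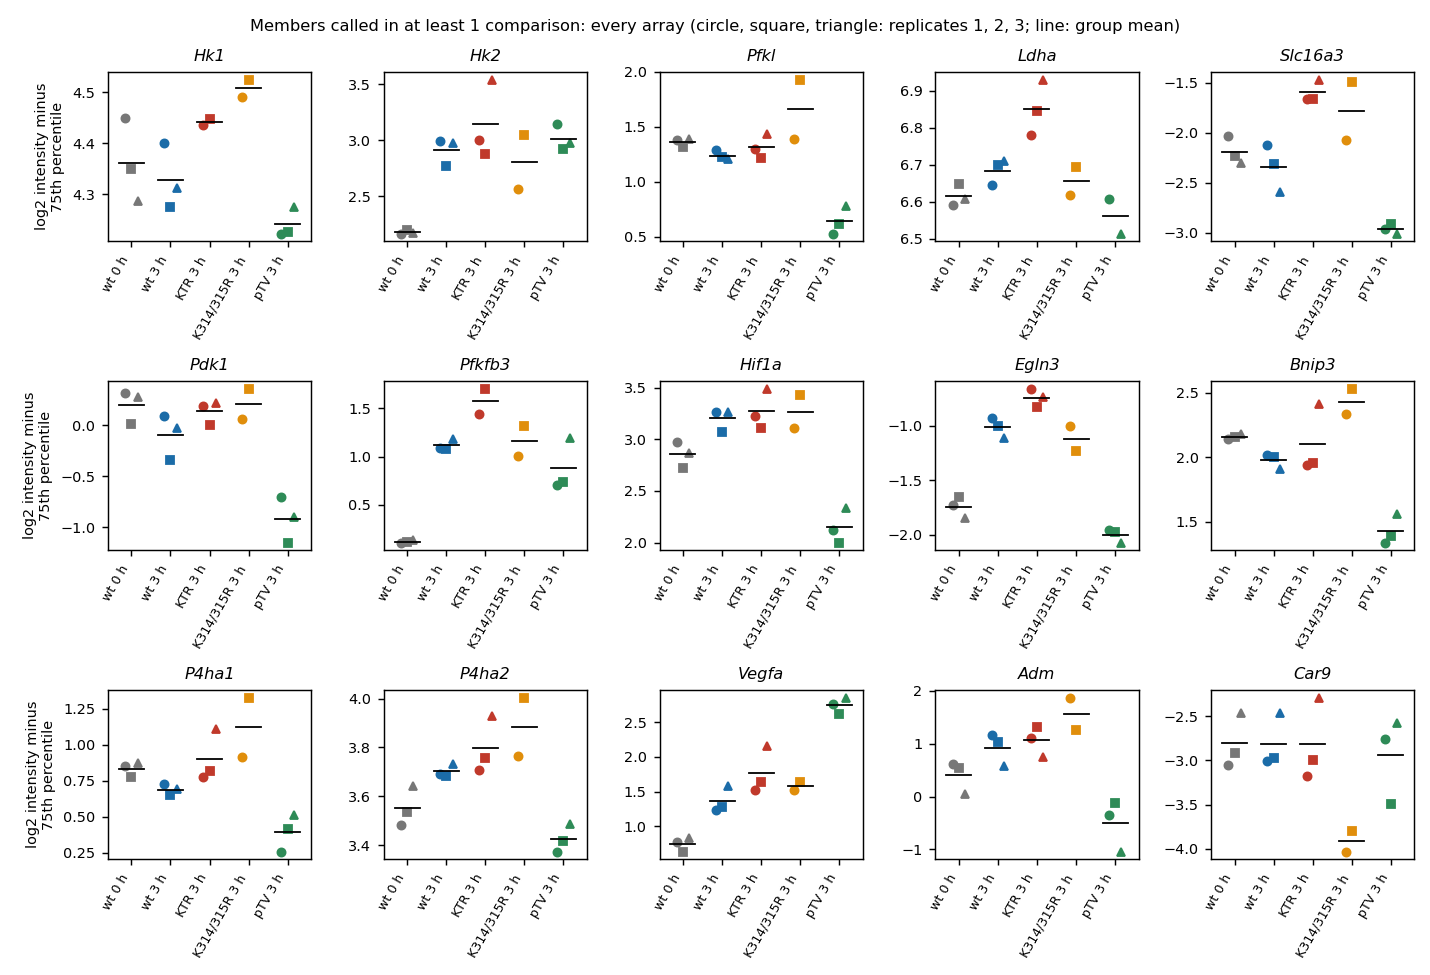
Level of the 15 members called in at least 1 comparison (log2 intensity minus the 75th percentile of the array, own scale per panel), with every array as a point and the group mean as a line. Hif1a, Egln3, Pdk1 and Adm are lowest in pTV, Hk2 and Pfkfb3 are lowest in wt 0 h, and Vegfa runs the other way to most, highest in pTV and lowest in wt 0 h.

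Among the 9 hypoxia-induced survival, stress and secretory genes, 2 were called higher and 1 lower in wt than in pTV. Adm, which encodes the vasodilator peptide adrenomedullin, had the widest spread of group means of all members (2.07). It read 1.16, 1.04 and 0.58 in wt 3 h and -0.35, -0.12 and -1.04 in pTV, a 2.70-fold difference (1.43 ± 0.27, adjusted p = 0.00304, limma). In KTR the values were 1.12, 1.32 and 0.75, and in K314/315R 1.87 and 1.25, which put these lines above pTV by 1.57 ± 0.27 and 2.07 ± 0.30 (adjusted p = 0.0018 and 0.000442, limma). All pTV arrays were below every array of the other groups, the nearest of which was an unstimulated wt array (0.61, 0.55 and 0.04). Slide 3 gave the lowest Adm value of each of the 4 groups on it, by 0.31 to 0.54 under the group mean, and within slides the wt to pTV difference stayed between 1.16 and 1.62.

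Bnip3, a mitochondrial protein that marks mitochondria for removal, was also higher with p65. It read 2.02, 2.00 and 1.91 in wt 3 h against 1.34, 1.39 and 1.56 in pTV (0.55 ± 0.13, 1.46-fold, adjusted p = 0.0108, limma). Without TNFα the wt arrays were at 2.14, 2.16 and 2.18, so all wt arrays of either time lay above pTV. The K314/315R arrays, 2.33 and 2.53, were the highest of all groups on average and were above pTV by 1.00 ± 0.14 (adjusted p = 0.000332, limma), while KTR was above it by 0.67 ± 0.13 (adjusted p = 0.00308, limma).

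Vegfa, the vascular endothelial growth factor gene and a classical hypoxia target, was the 1 member called lower in wt than in pTV. The pTV arrays were highest at 2.77, 2.61 and 2.85, the wt 3 h arrays read 1.23, 1.28 and 1.58, and the wt 0 h arrays were lowest at 0.77, 0.64 and 0.84. Groups did not overlap. In wt cells Vegfa was higher at 3 h than at 0 h by 0.61 ± 0.16 (1.53-fold, adjusted p = 0.0478, limma). In pTV at 3 h it was 2.61-fold above wt at 3 h (wt minus pTV -1.38 ± 0.16, adjusted p = 6.39e-05, limma). KTR (1.52, 1.64 and 2.16) and K314/315R (1.52 and 1.64) were also below pTV, with differences of -0.97 ± 0.16 and -1.16 ± 0.18 (adjusted p = 0.0012 and 0.000577, limma). The 3 Vegfa probes all had lower values in wt than in pTV (-1.13, -1.34 and -1.38, each called). The TNFα call was lost when any single array of either wt group was left out (adjusted p from 0.0816 to 0.185, limma); the differences then were 0.50 to 0.68. It was lost as well without the K314/315R arrays (adjusted p = 0.058, limma).

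The collagen prolyl 4-hydroxylases P4ha1 and P4ha2, which let collagen fold, were higher in both mutants than in pTV. P4ha1 read 0.26, 0.42 and 0.52 in pTV, 0.78, 0.82 and 1.11 in KTR and 0.92 and 1.33 in K314/315R (0.51 ± 0.12 and 0.72 ± 0.14, adjusted p = 0.0157 and 0.00254, limma), and a second, dimmer P4ha1 probe was not called in either (0.34 and 0.33). P4ha2 differed by 0.37 ± 0.09 and 0.46 ± 0.10 (adjusted p = 0.0181 and 0.00718, limma). In wt the differences from pTV were 0.29 for P4ha1 and 0.28 for P4ha2, neither called. The replicate block matches arrays by replicate number, and so by slide for wt and pTV. With it P4ha2 was called (adjusted p = 0.0165, limma). P4ha2 was called as well with slide as a random block (adjusted p = 0.0186, limma) and with the authors' normalized values (adjusted p = 0.038, limma). Calls for KTR were lost without KTR replicate 3 or pTV replicate 1 for both genes, and for P4ha2 also without pTV replicate 2 (adjusted p from 0.0544 to 0.0608, limma). For P4ha2 in K314/315R the call was lost without K314/315R replicate 2 (0.34, adjusted p = 0.081, limma).

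Car9, a carbonic anhydrase at the cell surface, was dim (group means from -3.92 to -2.81) and stood apart only in K314/315R, at -4.03 and -3.80, below every other array. The difference from pTV was -0.97 ± 0.31 (adjusted p = 0.0383, limma), which 4 of the 5 single-array omissions brought over the threshold (adjusted p from 0.0911 to 0.173; only leaving out pTV replicate 2 did not). Car9 depended on slide as well, with slide 3 above the group mean in all 4 groups on it by 0.34 to 0.53, and both K314/315R arrays share a slide with no other group.

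The remaining genes of this role, Ddit4, Ndrg1 and Ero1l, were called in 0 of the 7 comparisons. Ddit4, an inhibitor of mTOR signalling, read 5.85, 5.65 and 5.74 in wt 0 h and 5.27, 5.06 and 5.23 in wt 3 h, without overlap (-0.56 ± 0.16, adjusted p = 0.0752, limma). With only the arrays of the wt groups, or with slide as a random block, that difference was called (adjusted p = 0.0226 and 0.0346, limma). Ndrg1, a stress-responsive gene, varied between 3.75 and 4.54 over all arrays. Ero1l, the oxidase that makes disulphide bonds in the endoplasmic reticulum, had 2 probes that disagreed: the brighter one was not called anywhere and read highest on slide 2 in all 4 groups there, while the dimmer one was higher at 3 h than at 0 h (0.57, adjusted p = 0.0141, limma) and higher in K314/315R than in pTV (0.74, adjusted p = 0.00138, limma) and than in KTR (-0.53 for KTR minus K314/315R, adjusted p = 0.036, limma).

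Of the 6 genes that direct pyruvate, lactate and fructose-2,6-bisphosphate, 2 were higher in wt than in pTV and 1 was higher after TNFα. Pdk1, the kinase that inactivates pyruvate dehydrogenase and so keeps pyruvate from becoming acetyl-CoA, and Slc16a3, the lactate exporter MCT4, were higher with each form of p65. Pdk1 read 0.09, -0.34 and -0.03 in wt 3 h and -0.70, -1.15 and -0.90 in pTV (0.82 ± 0.15, 1.77-fold, adjusted p = 0.0025, limma), and the unstimulated wt arrays were at 0.32, 0.01 and 0.27. Thus pTV was below every array of the other 4 groups. KTR was above pTV by 1.06 ± 0.15 and K314/315R by 1.13 ± 0.17 (adjusted p = 0.000462 and 0.000523, limma), and a second Pdk1 probe was called in the same 3 comparisons (0.69, 0.86 and 0.79).

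Slc16a3 was dim, at -2.12, -2.31 and -2.59 in wt 3 h, -2.03, -2.23 and -2.31 in wt 0 h and -2.96, -2.91 and -3.01 in pTV. Both wt groups were above pTV on every array, with a difference of 0.62 ± 0.16 at 3 h (1.53-fold, adjusted p = 0.0183, limma). That call was lost without wt replicate 1, wt replicate 2 or pTV replicate 3 (adjusted p from 0.0571 to 0.0918, limma). KTR had the highest group mean. Its arrays read -1.66, -1.66 and -1.47, a 2.57-fold difference from pTV (1.36 ± 0.16, adjusted p = 7.73e-05, limma). K314/315R read -2.07 and -1.49 (1.18 ± 0.17, adjusted p = 0.000471, limma) and so overlapped KTR.

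Pfkfb3, the kinase that makes fructose-2,6-bisphosphate and so speeds phosphofructokinase, had the largest difference of the members called after TNFα. It read 0.11, 0.11 and 0.13 at 0 h and 1.09, 1.08 and 1.18 at 3 h, a 2.00-fold rise without overlap (1.00 ± 0.14, adjusted p = 0.00208, limma). The pTV arrays at 3 h, 0.71, 0.74 and 1.20, reached into the stimulated wt values, with a wt to pTV difference of 0.24 ± 0.14 that was not called (95% interval -0.07 to 0.54). Pfkfb3 was higher in KTR, at 1.45 and 1.70 with replicate 3 not usable, than in pTV (0.69 ± 0.16, adjusted p = 0.0114, limma). Leaving out KTR replicate 2 left 1 KTR array, with a difference of 0.56 and without the call. Its relative Pfkfb4 lay between 1.70 and 2.15 on all arrays and was not called in any comparison.

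The lactate dehydrogenase subunits differed. Ldha, the muscle-type subunit, spanned only 6.51 to 6.93 over all arrays. Its KTR values, 6.78, 6.85 and 6.93, were above the 2 usable pTV arrays, 6.61 and 6.51, by 0.29 ± 0.09 (adjusted p = 0.0465, limma), a call that 5 of 6 single-array omissions ended (adjusted p from 0.0629 to 0.223; without KTR replicate 1 it was kept) and for which a second, dimmer Ldha probe gave a difference of 0.0016. Ldhb, the heart-type subunit, read 6.59, 6.32 and 6.44 in wt 3 h, 6.71, 6.68 and 6.78 in wt 0 h, 6.21, 5.84 and 6.02 in pTV, 5.72, 5.41 and 6.07 in KTR and 6.21 on the 1 usable K314/315R array. KTR was thus below both wt groups on every array. The KTR to wt difference of -0.72 ± 0.16 was not called (adjusted p = 0.124, limma), but was with the replicate block (adjusted p = 0.0377, limma) and without KTR replicate 3 (-0.89, adjusted p = 0.0395, limma). The wt to pTV difference, 0.43 ± 0.16, was likewise called with the replicate block (adjusted p = 0.0396, against 0.107 without, limma).

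Of the 3 genes of glucose uptake and phosphorylation, 1 was higher after TNFα and 0 were called between wt and pTV. Hk2, the inducible hexokinase, read 2.17, 2.20 and 2.18 at 0 h and 2.99, 2.77 and 2.97 at 3 h (0.73 ± 0.17, 1.66-fold, adjusted p = 0.0285, limma), and 3.15, 2.92 and 2.98 in pTV at 3 h. All 3 h arrays of every line, from 2.57 to 3.54, were above the unstimulated ones. Wt minus pTV was -0.10 (95% interval -0.47 to 0.26). As for Vegfa, omission of any 1 of the 6 wt arrays ended the TNFα call (adjusted p from 0.0549 to 0.106, limma) with the difference between 0.69 and 0.80. Slc2a1, the glucose transporter GLUT1, ran alongside, with 4.80, 4.27 and 4.42 at 0 h, 5.30, 5.0 and 5.08 at 3 h and 5.54, 4.94 and 5.10 in pTV. Slide 1 read high in each group, and the TNFα difference of 0.63 ± 0.17 was not called (adjusted p = 0.0599, limma) but was with the replicate block (adjusted p = 0.0123, limma), with quantile normalization (adjusted p = 0.0313, limma) and without wt 0 h replicate 1 (adjusted p = 0.0403, limma). Hk1, the constitutive hexokinase, was called only in K314/315R against pTV (4.49 and 4.53 against 4.22, 4.23 and 4.28, 0.27 ± 0.09, adjusted p = 0.0467, limma). Each of the 5 single-array omissions ended that call (adjusted p from 0.0729 to 0.161, limma), and with the mean of its 4 tested probes in place of the brightest the difference was -0.14.

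In upper glycolysis 1 of 7 members was called against pTV in each line, and in lower glycolysis 0 of 5 measured members in any of the 7 comparisons. The highest minus the lowest of the 5 group means was 0.186 to 0.318 log2 units for Pgk1, Pgam1, Eno1, Eno2 and Pkm2 (median 0.284), against a median of 0.464 over all tested probes and 0.563 over the 33 members. Gpi1 and Aldoa, the isomerase and aldolase of the upper chain, had the smallest spread of all members, Aldoa at 0.0758.

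**Figure D3:**
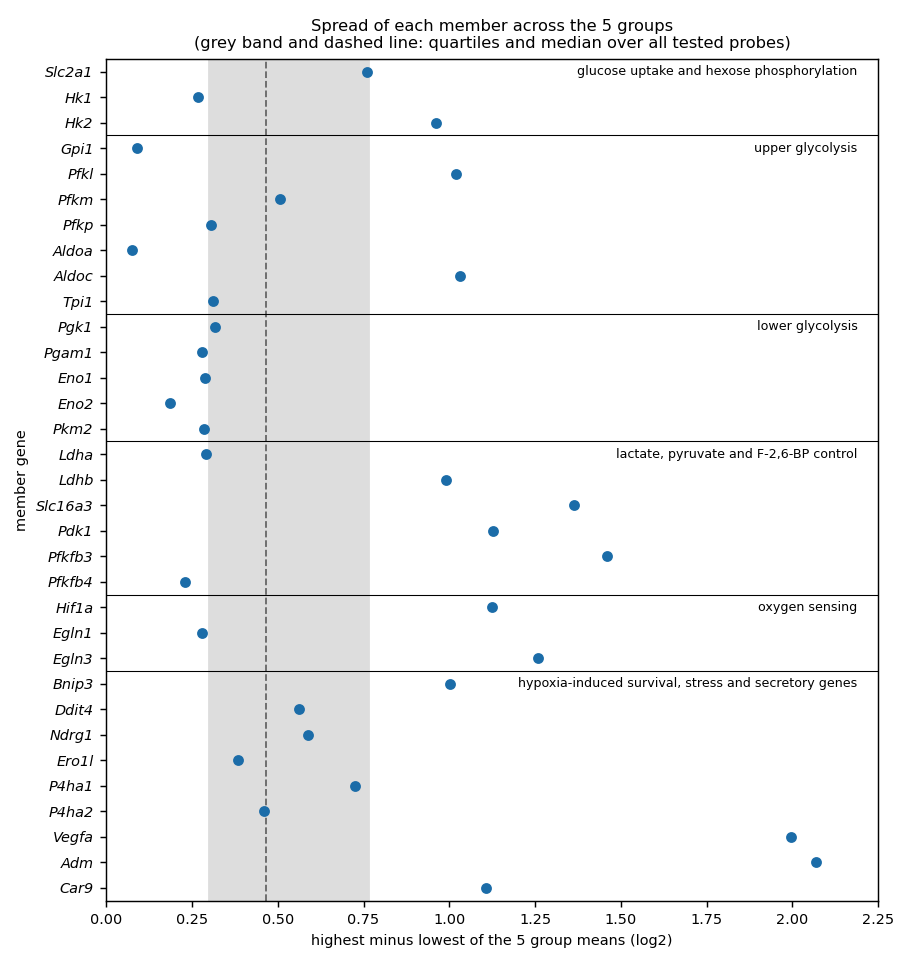
Highest minus lowest of the 5 group means (x axis, log2) for each of the 33 measured members, by role; the grey band and dashed line give the quartiles and the median (0.464) over all tested probes. All 5 lower glycolytic genes lie at or under 0.318, while Adm reaches 2.07 and Vegfa, Pfkfb3 and Slc16a3 lie above 1.3.

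The member of the chain that was called was Pfkl, the liver-type phosphofructokinase, which catalyses the first step particular to glycolysis. It read 1.29, 1.23 and 1.20 in wt 3 h, 1.38, 1.32 and 1.39 in wt 0 h and 0.53, 0.62 and 0.78 in pTV. All wt arrays exceeded all pTV arrays (at 3 h 0.60 ± 0.13, 1.51-fold, adjusted p = 0.00683, limma). KTR was above pTV by 0.68 ± 0.13 and K314/315R, at 1.39 and 1.93, by 1.02 ± 0.14 (adjusted p = 0.00322 and 0.000324, limma). The other phosphofructokinase genes were not called, Pfkm with differences from -0.43 to 0.29 and Pfkp with -0.23 to 0.23, although a dim Pfkp probe (mean -4.51) was lower in KTR and K314/315R than in pTV (-0.79 and -1.04). The Tpi1 difference between K314/315R and pTV was 0.31 (adjusted p = 0.0798, limma), and 0.38 with the replicate block (adjusted p = 0.00699, limma). With the authors' normalized values it was 0.36 and called (adjusted p = 0.028, limma). Aldoc, the brain-type aldolase, was near background. It was well above background on 3 of 3 wt 3 h arrays and 2 of 3 wt 0 h arrays. In KTR, K314/315R and pTV that held for 1 array each, so only wt 3 h met the requirement for testing. Its value was highest on slide 3 in each of the 4 groups there. The wt 3 h arrays read -4.51, -4.89 and -2.34, and the K314/315R arrays -4.98 and -4.91. Their difference of -1.03 ± 0.76 was past the ratio of 1.8 and was not called (adjusted p = 0.535, limma). With K314/315R near background and the wt mean raised by 1 array, its size cannot be read as a fold change.

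Pgam1, the phosphoglycerate mutase, and Pkm2, a pyruvate kinase, had their highest group mean in KTR. Pgam1 read 6.50, 6.42 and 6.55 there and 6.17 to 6.30 on the wt 3 h and pTV arrays. These differences, 0.26 ± 0.08 from wt and 0.25 ± 0.08 from pTV, were not called (adjusted p = 0.292 and 0.0597, limma); with the replicate block that from pTV was (adjusted p = 0.0266, limma). The Pkm2 difference from wt was 0.26 ± 0.10 (adjusted p = 0.421, limma), and a second Pkm2 probe of nearly the same brightness (mean 5.25) gave 0.06.

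**Figure D4:**
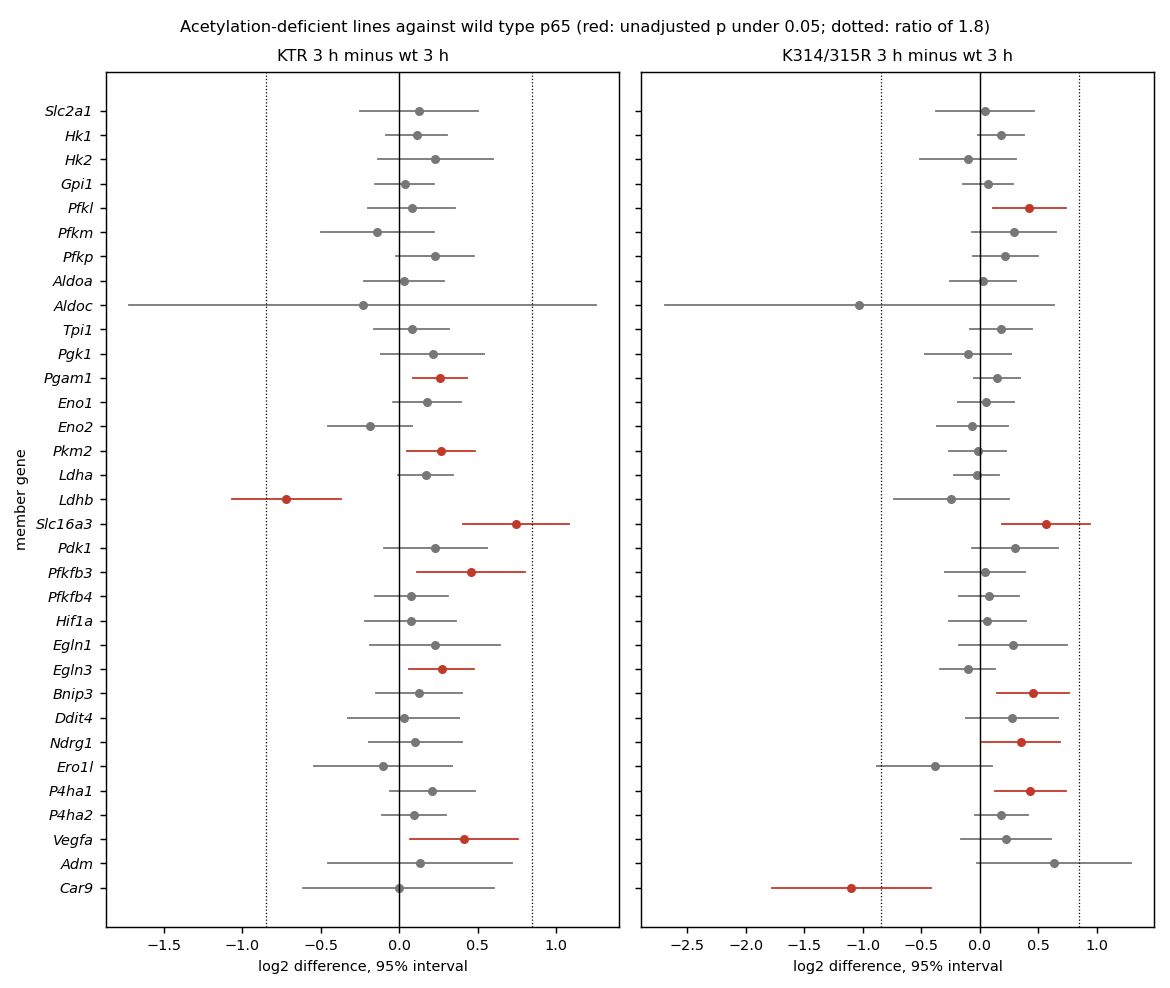
Log2 difference of KTR (left) and K314/315R (right) from wt at 3 h for the 33 members, with 95% intervals from limma; dotted lines mark a ratio of 1.8, and red marks an unadjusted p under 0.05. No member passed the adjusted threshold, and only Aldoc and Car9 in K314/315R have an estimate past the dotted lines, Aldoc being near background.

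Mutation of the acetylation sites was compared with wt p65 directly. For the 7 genes that were higher in wt than in pTV, the KTR to wt difference was 0.07 for Hif1a (95% interval -0.22 to 0.37), 0.13 for Adm (-0.45 to 0.72), 0.23 for Pdk1 (-0.10 to 0.56), 0.13 for Bnip3 (-0.15 to 0.40) and 0.08 for Pfkl (-0.20 to 0.36). Those intervals leave out a 1.8-fold difference in either direction. Slc16a3 differed most, by 0.75 ± 0.16 (0.41 to 1.08, adjusted p = 0.0864, limma), higher in KTR on every slide by 0.46, 0.65 and 1.12, and Egln3 by 0.27 ± 0.10 (0.06 to 0.48, adjusted p = 0.38, limma). Slc16a3 was called when the K314/315R arrays were left out of the fit (adjusted p = 0.043, limma), with slide as a random block (adjusted p = 0.0291, limma) and when dim probes were also tested (adjusted p = 0.0299, limma). Vegfa was 0.41 ± 0.16 higher in KTR than in wt (0.07 to 0.76), with overlapping values and no call (adjusted p = 0.431, limma).

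K314/315R against wt rested on 2 arrays of the mutant. Slc16a3 (0.56 ± 0.17), Bnip3 (0.46 ± 0.14), P4ha1 (0.43 ± 0.14), Pfkl (0.42 ± 0.14) and Ndrg1 (0.35 ± 0.15) had an unadjusted p under 0.05 and were not called (adjusted p from 0.115 to 0.255, limma). Values of the groups did not overlap for 17 of 33 members, nor for 36.2% of all probes without a missing value. The Car9 difference was -1.10 ± 0.31 (adjusted p = 0.0928, limma). With the replicate block, whose numbers do not pair these arrays with those of the other slides, Bnip3 (0.51, adjusted p = 0.0346), P4ha1 (0.48, adjusted p = 0.0362), Ndrg1 (0.43, adjusted p = 0.0446) and Car9 (-0.90, adjusted p = 0.019) were called by limma. Without K314/315R replicate 1, Pfkl and Slc16a3 were called (adjusted p = 0.0289 and 0.0457, limma), with the lone remaining array assumed to vary like the other groups. Hif1a differed by 0.06 (95% interval -0.26 to 0.39) and Egln3 by -0.10 (-0.34 to 0.13). A p that misses the threshold does not show that the mutants act like wt.

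The mutants were also set against each other. Of the 8 members at an unadjusted p under 0.05 between KTR and K314/315R, the largest differences (KTR minus K314/315R) were those of Car9 (1.10 ± 0.31, adjusted p = 0.0652, limma), Pfkl (-0.34), Pfkm (-0.43), Egln3 (0.38 ± 0.11, adjusted p = 0.0643, limma) and Pfkfb3 (0.41). Adm (-0.50) differed by more than most of these and had a higher p. The Ldhb difference (-0.47) rests on 1 usable K314/315R array. That of Aldoc (0.80) cannot be read as a fold change, as 1 array of each mutant was well above background. KTR replicate 3 gave no usable value for Pfkm and Pfkfb3. Single-array omissions brought some of these past the threshold: Car9 without KTR replicate 1 (adjusted p = 0.0482, limma), Bnip3 without KTR replicate 3 (adjusted p = 0.0353, limma) and Pfkl without K314/315R replicate 1 (adjusted p = 0.0322, limma), the last with 1 mutant array whose spread is taken from the other groups. For Pfkm, leaving out KTR replicate 1 leaves 1 KTR array, and the calls then made against pTV (-0.60) and K314/315R (-0.76) rest on that array. With the replicate block, Pgk1 (0.36, adjusted p = 0.0252), Pkm2 (0.30, adjusted p = 0.0448), Egln3 (0.41, adjusted p = 0.0148) and Car9 (0.90, adjusted p = 0.0147) were called by limma, with the same limit on the pairing. The median over the 33 members was 0.00397, and 0.0264 over all probes. With normexp the member median was 0.12, and with the authors' normalized values -0.08, so its sign depended on the processing.

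Other genes of these pathways, 69 listed and 54 tested, were set against the same shares of all probes. In wt against pTV 8 were higher and 3 lower (20.4%, against 14.8% of all probes), in wt 3 h against 0 h 4 and 1 (9.26%, against 4.68%), in KTR against pTV 9 and 3 (22.2%, against 15.2%) and in K314/315R against pTV 11 and 1 (22.2%, against 26%). Past the ratio of 1.8 in wt against pTV were Igfbp3, which binds insulin-like growth factors (2.16 ± 0.17), and Ak3l1, a mitochondrial adenylate kinase (0.94 ± 0.23), both higher, and Slc2a4, the insulin-regulated glucose transporter GLUT4 (-1.87 ± 0.19), and Car12, a further carbonic anhydrase (-0.96 ± 0.15), both lower. After TNFα in wt cells 3 were higher and 1 lower past that ratio. Among the higher were Pdgfb (1.33 ± 0.22), a growth factor, and Igfbp3 (0.97 ± 0.17). Pdk4, a second pyruvate dehydrogenase kinase, fell by 1.32 on the log2 scale. Lox, which cross-links collagen, was above pTV by 0.82 ± 0.17 in wt, 1.07 ± 0.17 in KTR and 1.38 ± 0.18 in K314/315R, and Arnt, the partner of Hif1a, was 0.45 ± 0.11 above pTV in both wt and KTR (adjusted p = 0.0149 and 0.016, limma). Car12 alone was called between the mutants, lower in KTR by 0.80 on the log2 scale (-0.80 ± 0.17, adjusted p = 0.0226, limma), under the ratio of 1.8.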

How the data were processed

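RNA of 14 samples was measured on 1-colour arrays. The authors deposited one scanner file per array, from Agilent Feature Extraction (9.1.1.1 for slides 1 to 3, 9.1.3.1 for slide 4). The spot intensity used was background-subtracted and detrended within its own array by that software. A series-wide table of intensity values, normalized by the authors in Rosetta Resolver, served as an alternative only, and its scaling was not stated.

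Control spots and outlier spots were left out (1 to 326 per array), spots of a probe were averaged, and log2 values were centred on the 75th percentile. limma 3.58.1 (R 4.3.3) fitted all 14 arrays in 5 groups, with Benjamini-Hochberg adjustment over 22172 tested probes. The number of arrays limits the precision. The members and lists were chosen with earlier results of these data known. All members are reported by role, and per-array values are given for those called, up to 8 per direction and comparison by size of difference, with members past the ratio of 1.8 also named. Genes outside the member list were named only past that ratio, up to 4 per direction, except Arnt, Lox in wt and Car12 between mutants, which were chosen after their values were seen. One gene outside the member list is not reported here.

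Replicate numbers pair arrays on slides 1 to 3: over all tested probes, deviations from the group mean correlated at 0.308 to 0.613 in 18 same-number pairs and at -0.510 to 0.0954 in 36 others. They do not pair the K314/315R arrays (8 same-number pairs, -0.101 to 0.411). The replicate block is therefore an alternative fit, its value given where it changes a call. Sequences are from RefSeq windows, of 32851 windows for 27025 genes; Ndrg1 had no window matched. Other alternatives were normexp (offset 50), quantile normalization, median centring, the filter on dim probes, slide as a random block, the arrays in the fit, the probe rule, the call rule and leaving out each array.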

Additional observations from a re-analysis of the deposited data

How the results depend on the processing

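Of 584 values of the 36 member calls recomputed under an alternative, 499 kept direction and call, 84 kept direction but missed the threshold, and 1 reversed: Hk1 in K314/315R against pTV, at -0.14 with the mean of its 4 tested probes. Median centring and the replicate block kept all 36 calls, quantile normalization kept 33, and slide as a random block kept 35, as did the authors' normalized values. The count of members called in wt against pTV, 8, was 2 with normexp and 4 with the ratio of 1.8 added. It was 7 to 8 on leaving out single arrays. The replicate block and slide as a random block each added Ldhb and P4ha2, and the authors' normalized values added P4ha2. In wt 3 h against 0 h, 4 became 0 with normexp, 2 with no filter on dim probes and 1 with the ratio added. It became 8 at an unadjusted p under 0.05 (limma) and 2 to 3 on leaving out single arrays. Slide as a random block added Slc2a1 (adjusted p = 0.00372, limma) and Ddit4 (adjusted p = 0.0346, limma) there. Slc2a1 was also added by the replicate block and by quantile normalization, and Ddit4 by fitting only the arrays compared. KTR against pTV went from 12 to 3 with normexp, 6 with the ratio and 7 with only the arrays compared, and stayed at 9 to 13 without single arrays; K314/315R against pTV went from 12 to 4 with normexp and 9 to 11 without single arrays. The counts of 0 became, in KTR against wt, 7 at an unadjusted p, 2 without the filter, 1 with the replicate block, 2 with slide as a random block, 1 without the K314/315R arrays (an alternative chosen after seeing the data) and 0 to 1 without single arrays. In K314/315R against wt they became 6 at an unadjusted p, 4 with the replicate block (Bnip3, Ndrg1, P4ha1 and Car9) and 0 to 2 without single arrays, and in KTR against K314/315R 8 at an unadjusted p, 1 with the authors' normalized values (Ldhb), 1 without the filter, 4 with the replicate block (Pgk1, Pkm2, Egln3 and Car9) and 0 to 2 without single arrays. In K314/315R against pTV, Ddit4 was called without K314/315R replicate 1 and Pfkfb3 without pTV replicate 3. The replicate block also called Tpi1 in K314/315R against pTV, and the K314/315R numbers do not pair with the other slides. The authors' normalized values called Tpi1 there as well. Slide as a random block called Pgam1 in KTR against pTV (0.25, adjusted p = 0.0201, limma), as the replicate block did. The replicate block changed no call of a member other than those given here and beside the results. The cause of these changes was not tested.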
